A study of Mus musculus with 2 samples.

Results

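Collagens are the main fibrous proteins of the extracellular matrix, and the mouse genes that encode their alpha chains were followed here in skeletal muscle. Members were all genes with at least 1 protein-coding transcript and a symbol made of Col, a number, the letter a and a number, which gave 44 of the 55536 genes measured, on 15 chromosomes. They were grouped by the structures they form into 11 fibrillar, 6 basement membrane, 9 FACIT (fibril-associated) and 18 other chains, the last being beaded filament, multiplexin, transmembrane and network or anchoring collagens.

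RNA was sequenced from the gastrocnemius, a calf muscle, of male mice aged 8 to 10 months and of the strain 5xFAD/CAST, described as 5xFAD crossed to Cast, with 300 ng of total RNA entering each library. The 5xFAD line is known for neuronal Thy1-driven transgenes that include mutant human APP, and CAST is an inbred strain from wild Mus musculus castaneus; the labels do not say whether each animal inherited the transgenes. There was 1 group of 2 libraries, biological replicates 2 and 1, from separate biosamples under 1 donor entry, so no genotype, age or tissue was compared. Nothing in the labels says whether the biosamples came from separate animals, so the spread between them may be technical. Values are mean ± SD over n = 2 libraries unless a library is named. The libraries held 35580757 expected counts in replicate 2 and 35350142 in replicate 1. Levels are given as TPM, an abundance that allows for transcript length and library size, and expected counts are reads with those matching several genes shared out among them. Muscle fibre genes stood far above everything described below, with Acta1, skeletal actin, at 18372 TPM in replicate 2 and 18634 TPM in replicate 1.

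A collagen molecule is made of 3 alpha chains wound into a triple helix, which requires glycine at 1 in every 3 residues, in strict repeat. Fibroblasts secrete most of the fibrillar chains of muscle connective tissue, and basement membrane chains form sheets around fibres and capillaries. Fibrillar genes differ from the others in the length of the unbroken helix they encode, which can be read from each gene's longest coding sequence in M21 as a run of codon triplets that each begin with glycine. In 9 of the fibrillar genes the longest run had 337 to 344 triplets, and in Col27a1 and Col24a1 it had 217 and 216. Basement membrane chains had longest runs of only 39 to 66 triplets but 16 to 19 separate runs of at least 10, FACIT chains had longest runs of 32 to 113, and all others 23 to 87. The stretches below are 54 bases each, read 5′ to 3′ from M21 transcripts on mm10 with glycine codons in capitals, and show how the unbroken helix begins in the most abundant fibrillar chains and how it ends in chains of other classes.
Col1a1, codons 168 to 185 (exons 6 and 7, chr11:94939451-94939741, forward strand): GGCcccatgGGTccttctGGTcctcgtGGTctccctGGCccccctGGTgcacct
Col1a2, codons 97 to 114 (exons 6 and 7, chr6:4512406-4515254, forward strand): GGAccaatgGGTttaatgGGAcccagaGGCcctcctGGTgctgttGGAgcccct
Col3a1, codons 164 to 181 (exons 5 and 6, chr1:45323762-45325377, forward strand): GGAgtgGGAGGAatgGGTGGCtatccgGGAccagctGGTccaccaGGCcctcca
Col4a1, codons 154 to 171 (exons 8 and 9, chr8:11244525-11245066, reverse strand): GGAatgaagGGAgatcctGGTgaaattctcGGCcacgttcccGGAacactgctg
Col6a1, codons 508 to 525 (exons 23 and 24, chr10:76714447-76714708, reverse strand): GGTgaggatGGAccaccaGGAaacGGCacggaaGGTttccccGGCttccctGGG
Col22a1, codons 1437 to 1454 (exons 60 and 61, chr15:71806246-71807913, reverse strand): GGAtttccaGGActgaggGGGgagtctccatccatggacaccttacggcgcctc
In the Col1a1, Col1a2 and Col3a1 stretches glycine keeps its place throughout. In Col4a1 the repeat ends where an extra codon puts the next glycine out of step, in Col6a1 a codon is missing from the repeat, and in Col22a1 the repeat stops with no glycine codon after it in the stretch.

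Collagen RNA in this muscle was dominated by types I, III and IV. Of the 44 genes, 19 (43.2%) reached at least 1 TPM in both libraries, a share close to the 45.7% of all nuclear protein-coding genes that did, so passing 1 TPM does not set collagens apart. Only 7 reached 10 TPM in both: Col1a2, Col1a1, Col3a1, Col4a1, Col4a2, Col6a2 and Col6a1. Summed over the family, collagen TPM was 229 in replicate 2 and 243 in replicate 1, which is 0.0527 ± 0.000316% of the TPM of nuclear protein-coding genes. By expected counts, which also grow with transcript length, the family held 0.122 ± 0.00337%. The 3 most abundant genes took 54.3% of collagen TPM in replicate 2 and 47.9% in replicate 1, and the top 8 took 82.2% in replicate 2 and 80.1% in replicate 1. The median collagen gene had 0.830 TPM in each library, against a median over all nuclear protein-coding genes of 0.630 TPM in replicate 2 and 0.710 TPM in replicate 1. In bulk RNA of whole muscle, few cells of a type and little RNA per cell cannot be told apart, and this holds for every level below.

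**Figure D1:**
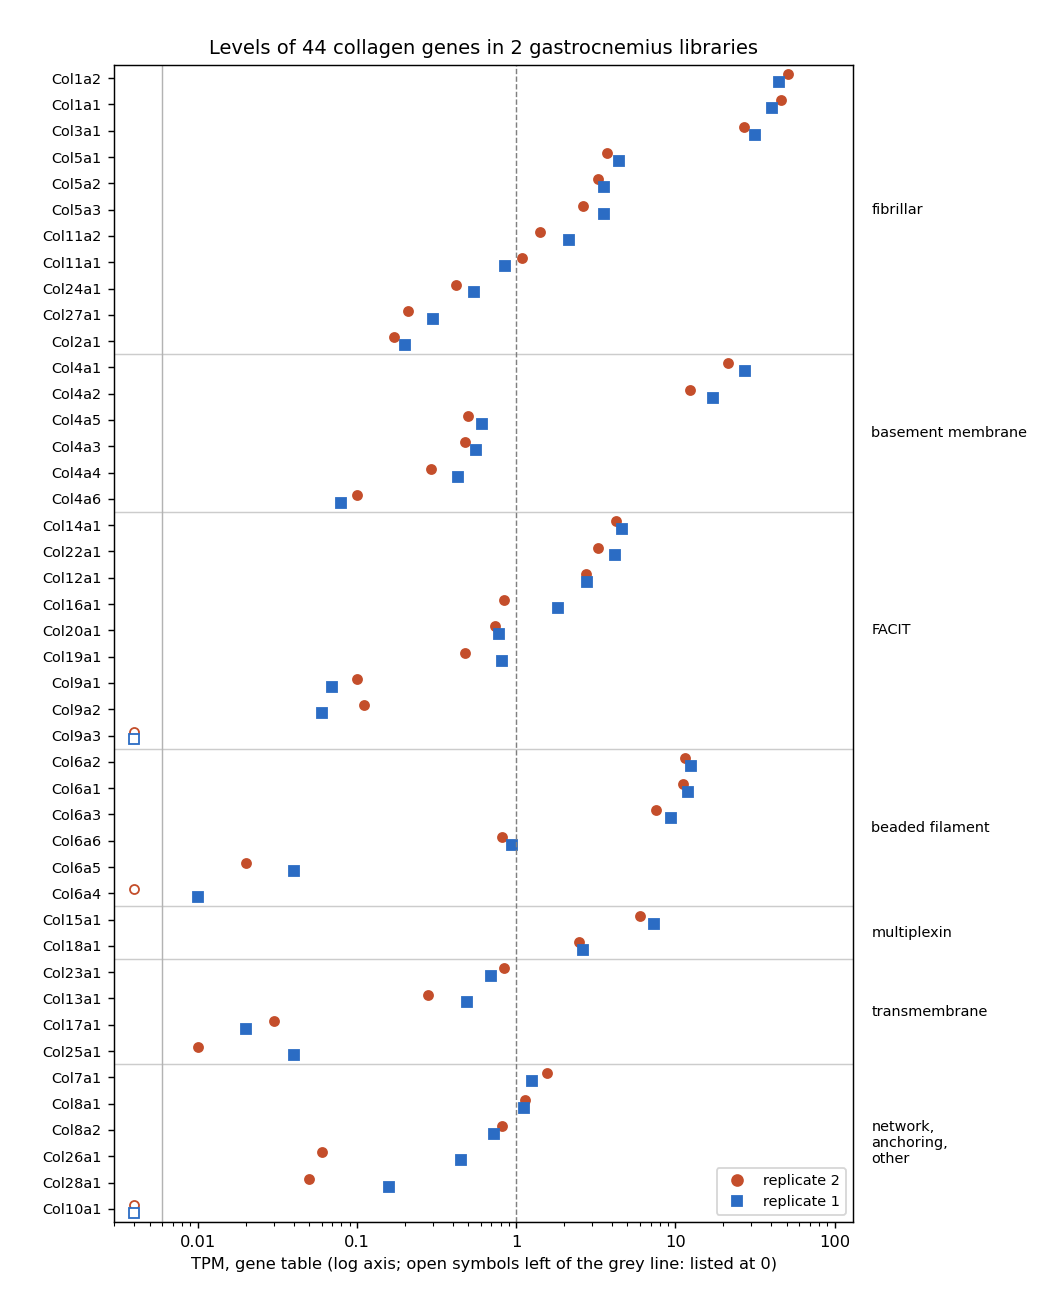
Deposited TPM (log axis) of the 44 collagen genes, grouped by class, with circles for replicate 2 and squares for replicate 1; open symbols are genes listed at 0 and the dashed line marks 1 TPM. Col1a2, Col1a1, Col3a1 and Col4a1 lie above 20 TPM in both libraries, while 24 genes have a mean under 1 TPM.

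Fibrillar collagens made up most of the family. Their 11 genes took 59.9% of collagen TPM in replicate 2 and 54.3% in replicate 1 (57.1 ± 4.00%), basement membrane chains 17.2 ± 2.63%, FACIT chains 5.85 ± 0.540%, and all others 19.9 ± 0.833%, of which beaded filament chains alone gave 13.9 ± 0.573%. Fibrillar chains came first and FACIT chains last in both libraries on each of the 4 measures plotted. Basement membrane and other chains had no fixed order: by gene TPM the other chains were ahead in both libraries, but by expected counts basement membrane chains held 19.0% in replicate 1, against 18.5% for the others. Transmembrane collagens gave 0.511 ± 0.00557%.

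**Figure D2:**
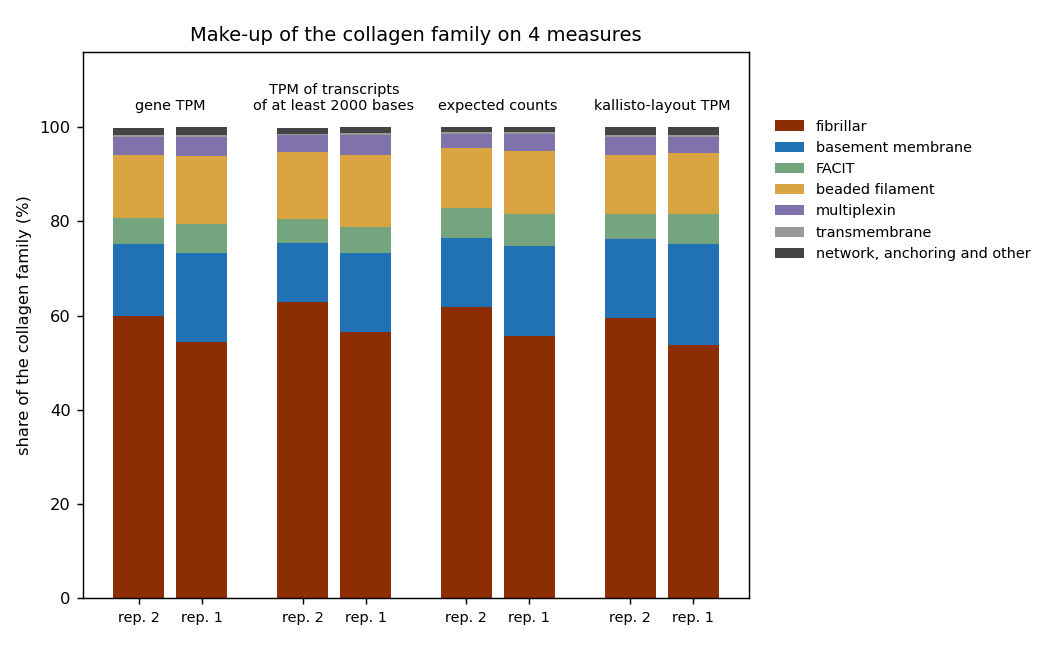
Share of summed collagen abundance (percent) held by each class in replicate 2 (left bar of each pair) and replicate 1 (right bar), by gene TPM, by TPM of transcripts of at least 2000 bases, by expected counts and by TPM of the kallisto-layout table. Fibrillar chains hold 53.8 to 62.8% in all 8 bars.

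Type I collagen, the heteropolymer of Col1a1 and Col1a2 chains that gives tendon and connective tissue its tensile strength, was the most abundant. Col1a2 (chr6:4504814-4541544) had 51.2 TPM in replicate 2 and 44.6 TPM in replicate 1, and among nuclear protein-coding genes it ranked 1008 in replicate 2 and 1261 in replicate 1. Col1a1 (chr11:94936224-94953042) had 46.3 TPM in replicate 2 and 40.3 TPM in replicate 1. Both type I genes were thus higher in replicate 2, and they kept nearly the same proportion to each other, 0.904 ± 0.000519 TPM of Col1a1 per TPM of Col1a2, although the assembled molecule is known to hold a pair of alpha 1 chains for each alpha 2 chain. Nearly all of the Col1a2 signal came from the full-length Col1a2-201, at 48.9 TPM in replicate 2 and 41.7 TPM in replicate 1.

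Col3a1 (chr1:45311538-45349706) encodes the single chain of type III collagen, which mixes with type I in compliant tissues. It had 26.9 TPM in replicate 2 and 31.5 TPM in replicate 1, so its gene TPM ran opposite to type I between the libraries. The full-length Col3a1-201 did not, at 24.3 TPM in replicate 2 and 24.9 TPM in replicate 1; most of the gap in these tables lay in Col3a1-205, a 737-base transcript listed at 0 TPM in replicate 2 and at 4.56 TPM in replicate 1 on 74 counts. In the kallisto-layout table that transcript was not at 0 in replicate 2, with 5.11 TPM in replicate 2 and 8.86 TPM in replicate 1. Over transcripts of at least 2000 bases, Col3a1 stood at 0.579 ± 0.0639 of Col1a1. Col3a1 is 1 of only 3 of the 44 genes with a posterior SD above 0 for its expected count, 3.98 in replicate 2 and 3.95 in replicate 1, beside 3647 counts in replicate 2 and 3584 in replicate 1. The annotated microRNA gene Gm47302 lies within it on the same strand, with 37 counts in replicate 2 and 55 in replicate 1.

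Type V and XI chains, which co-assemble inside type I fibrils and limit their width, were the next fibrillar group by level, well below. Col5a1 had 3.70 TPM in replicate 2 and 4.40 TPM in replicate 1. Col5a2, which lies 24615 bases from Col3a1 and is transcribed towards it, had 3.26 TPM in replicate 2 and 3.56 TPM in replicate 1. The other type V chain, Col5a3, had 2.62 TPM in replicate 2 and 3.55 TPM in replicate 1. The 3 genes thus lay within a narrow band, and all were lower in replicate 2 by TPM. On that scale the median log2 ratio of all genes tested was itself -0.132, and Col5a2 was at -0.13. Col11a2, best known from cartilage, had 1.41 TPM in replicate 2 and 2.14 TPM in replicate 1, of which its leading transcripts Col11a2-201 and Col11a2-204 held 0.740 and 0.610 TPM in replicate 2 and 0.870 and 0.570 TPM in replicate 1. Col11a1 had 1.09 TPM in replicate 2 and 0.850 TPM in replicate 1. The cartilage collagen Col2a1 was at 0.185 ± 0.0212 TPM, Col24a1 at 0.480 ± 0.0849 TPM and Col27a1 at 0.255 ± 0.0636 TPM. The fibrillar genes with shorter runs, Col24a1 and Col27a1, were thus rare, as was Col2a1 with a run as long as that of type I.

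Basement membrane collagen was almost entirely Col4a1 and Col4a2, the chains of the network found in basement membranes throughout the body. Col4a1 (chr8:11198423-11312826, reverse strand) had 21.4 TPM in replicate 2 and 27.5 TPM in replicate 1, and Col4a2 (chr8:11312805-11449287, forward strand) had 12.3 TPM in replicate 2 and 17.1 TPM in replicate 1. Both were lower in replicate 2. The pair is transcribed head to head from starts 21 bases apart, and the genes overlap there on opposite strands. Their 300-base promoter windows in RefSeq (GRCm38.p6, 250 bases before to 50 after each start) thus share 78 bases. These windows are shown because the pair moved together between the libraries, and that of Col1a2 because it moved the other way; capitals mark the TATA box letters TATAAA, the CCAAT box letters CCAAT and the GC box letters GGGCGG, each also where its reverse complement stands on the printed strand, and no match overlaps another.
Col4a1, chr8:11312777-11313076, reverse strand: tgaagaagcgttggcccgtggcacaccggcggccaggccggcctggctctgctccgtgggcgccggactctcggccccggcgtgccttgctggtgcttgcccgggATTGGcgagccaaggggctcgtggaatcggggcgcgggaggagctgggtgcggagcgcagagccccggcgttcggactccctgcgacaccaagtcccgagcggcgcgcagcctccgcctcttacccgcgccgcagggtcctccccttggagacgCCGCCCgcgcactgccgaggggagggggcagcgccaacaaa
Col4a2, chr8:11312555-11312854, forward strand: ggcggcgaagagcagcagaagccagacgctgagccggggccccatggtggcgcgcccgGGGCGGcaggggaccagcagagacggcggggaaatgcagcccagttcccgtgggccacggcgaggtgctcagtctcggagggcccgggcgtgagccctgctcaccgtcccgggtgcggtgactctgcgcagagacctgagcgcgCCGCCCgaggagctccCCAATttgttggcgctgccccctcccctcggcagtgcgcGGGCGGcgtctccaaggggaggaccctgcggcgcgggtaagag
Col1a2, chr6:4505368-4505667, forward strand: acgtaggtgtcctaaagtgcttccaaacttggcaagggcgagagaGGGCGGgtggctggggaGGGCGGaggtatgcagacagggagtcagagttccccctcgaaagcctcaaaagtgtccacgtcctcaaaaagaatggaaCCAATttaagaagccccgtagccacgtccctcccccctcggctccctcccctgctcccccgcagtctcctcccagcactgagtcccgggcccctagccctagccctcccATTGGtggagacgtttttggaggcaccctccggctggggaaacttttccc
None of the 3 windows holds TATAAA, and each holds CCAAT and GGGCGG. The Col1a2 window lies wholly inside that gene's M21 span, which starts at 4504814, so the bases before the M21 start are not in it. Whether Col1a2 has TATAAA outside the printed bases was not examined. The shared bases all lie within the first 50 after the start of Col4a1, of Col4a2 or of both. The GC box match of the Col4a1 window lies in these shared bases, after both starts, and is also marked in that of Col4a2. The part of these promoters in the ratios between the libraries was not tested. The Col4a1 and Col4a2 windows are 74% and 73.7% G and C and that of Col1a2 61.0%, against a median of 52.7% over all promoters. GGGCGG occurs in 60.5% of the 38 collagen promoter windows, which belong to 35 of the genes, and in 35.7% of all 32851 windows; CCAAT occurs in 34.2% of the collagen windows and 37.4% of all, and TATAAA in 13.2% of the collagen windows and 13.6% of all.

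The minor type IV chains were rare. Col4a5 had 0.50 TPM in replicate 2 and 0.610 TPM in replicate 1, or 0.0228 ± 0.000783 of the Col4a1 level by gene TPM and 0.0358 ± 0.003 over transcripts of at least 2000 bases. Col4a3 was at 0.520 ± 0.0566 TPM, its divergent neighbour Col4a4, 72 bases away, at 0.360 ± 0.0990 TPM, and Col4a6 at 0.09 ± 0.0141 TPM. Together with Col4a5, Col4a3 and Col4a4 chains build the network of the kidney glomerulus.

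Type VI collagen forms the beaded microfilaments around muscle fibres, and mutations in the human genes cause Ullrich and Bethlem muscle disease. Col6a2 (chr10:76595762-76623630) had 11.5 TPM in replicate 2 and 12.5 TPM in replicate 1. Col6a1 (chr10:76708792-76726168), its neighbour on the same strand, had 11.1 TPM in replicate 2 and 12 TPM in replicate 1. The 2 chains were at 0.961 ± 0.000118 to each other, with hardly any difference between the libraries, and neither gene has a short transcript that adds to its TPM. Col6a3, the long remaining chain of the classical molecule, had 7.52 TPM in replicate 2 and 9.33 TPM in replicate 1. That put it below both partners at 0.729 ± 0.0695 of Col6a1, and at 0.603 ± 0.0135 over transcripts of at least 2000 bases. Most of it was Col6a3-202, at 5.64 TPM in replicate 2 and 6.35 TPM in replicate 1, whereas the longest form, Col6a3-201 of 10106 bases, was listed at 0 in both libraries of the RSEM-layout table and at 0.307 TPM in replicate 2 and 0.417 TPM in replicate 1 in the kallisto-layout table. Of the chains that can take the place of Col6a3, Col6a6 was at 0.880 ± 0.0849 TPM, Col6a5 at 0.0300 ± 0.0141 TPM and Col6a4 at 0.00500 ± 0.00707 TPM. Col6a6 and Col6a5 had the same posterior SD, 0.380 counts in replicate 2 and 0.330 in replicate 1, so a few reads were divided between genes there.

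The multiplexins sit where basement membranes meet the surrounding matrix, and loss of Col15a1 in mice is known to cause a mild myopathy. Col15a1 had 5.96 TPM in replicate 2 and 7.35 TPM in replicate 1. Col18a1, whose C-terminal fragment is endostatin, had 2.47 TPM in replicate 2 and 2.62 TPM in replicate 1, so that Col15a1 stood 2.61 ± 0.277 times as high. Col18a1 has alternative starts, and the transcript from the upstream start at position 77166548 of chromosome 10, Col18a1-202 with 1315 codons, led at 1.44 TPM in replicate 2 and 1.43 TPM in replicate 1. Of the transcripts from the downstream start region, Col18a1-201 with 1774 codons had 0.480 TPM in replicate 2 and 0.450 TPM in replicate 1, while Col18a1-203 with 1527 codons had 0.240 TPM in replicate 2 and 0.740 TPM in replicate 1. Only the last of these differed widely between the libraries. Slc19a1 overlaps Col18a1 on the opposite strand with 99 counts in replicate 2 and 122 in replicate 1, against 301 counts of Col18a1 in replicate 2 and 333 in replicate 1; no source used here gives the strand setting of the counting.

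FACIT collagens lie on the surface of fibrils and link them to their surroundings. Col14a1 had 4.23 TPM in replicate 2 and 4.65 TPM in replicate 1, and Col12a1, its relative found in tendon and muscle connective tissue, had 2.73 TPM in replicate 2 and 2.77 TPM in replicate 1. Between them by level was Col22a1, which marks the myotendinous junction, where fibres attach to tendon. Col22a1 (chr15:71795795-72034227) had 3.28 TPM in replicate 2 and 4.16 TPM in replicate 1, and its 8809-base transcript alone had 3.05 TPM in replicate 2 and 3.09 TPM in replicate 1. Although the gene is known for this small site, its gene TPM was close to that of Col5a2 and above that of Col12a1. Col16a1 had 0.840 TPM in replicate 2 and 1.83 TPM in replicate 1 on only 94 counts in replicate 2 and 100 in replicate 1. No Col16a1 transcript led in both libraries. In replicate 2 the largest share of Col16a1 TPM was in Col16a1-209, labelled for nonsense-mediated decay (47.0%), which also led by counts (57.1%). In replicate 1 it was in the 383-base Col16a1-208 (27.2%), on only 4 counts. By counts the protein-coding Col16a1-210 led there (37.3%). Col20a1 was at 0.760 ± 0.0283 TPM. Col19a1, known from differentiating muscle in the mouse embryo, had 0.480 TPM in replicate 2 and 0.810 TPM in replicate 1.

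Transmembrane and nerve-associated collagens were rare in whole muscle RNA. Col13a1, which acts at the neuromuscular junction, had 0.280 TPM in replicate 2 and 0.490 TPM in replicate 1 on 19 counts in replicate 2 and 35 in replicate 1. Col25a1, a muscle product needed for motor axons to enter developing muscle in mice, had 1 count in replicate 2 and 5 in replicate 1. Col28a1, known from Schwann cells of peripheral nerve, had 6 counts in replicate 2 and 7 in replicate 1. The intervals of the ratio between the libraries include 0 for all 3 genes. Col23a1 was at 0.770 ± 0.0990 TPM and Col17a1, a hemidesmosome protein of skin, at 0.0250 ± 0.00707 TPM.

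Among network and anchoring collagens, Col8a1, a short chain found in vessel walls and in the cornea, had 1.14 TPM in replicate 2 and 1.12 TPM in replicate 1, and Col8a2 was at 0.775 ± 0.0636 TPM. Col7a1, the anchoring fibril chain of skin, had 1.57 TPM in replicate 2 and 1.25 TPM in replicate 1. Of that TPM, 87.3% in replicate 2 and 79.2% in replicate 1 lay in transcripts that are not protein coding, mostly with retained introns. Their share of counts was smaller, 48.6% in replicate 2 and 33.9% in replicate 1. The 525-base Col7a1-208 alone held 49.0% of TPM on 9 counts in replicate 2 and 51.2% on 7 counts in replicate 1. The protein-coding Col7a1-201 was at 0.2 TPM in replicate 2 and 0.260 TPM in replicate 1, with 51.3% of counts in replicate 2 and 66.1% in replicate 1. Col26a1 was at 0.255 ± 0.276 TPM. The cartilage collagens Col10a1 and Col9a3 had 0 counts in both libraries of the gene table. The limit that a count of 0 allows, taken as 3 counts, is 0.0365 TPM in replicate 2 and 0.0387 TPM in replicate 1 for Col10a1, and 0.0749 TPM in replicate 2 and 0.0796 TPM in replicate 1 for Col9a3, counting error only. The kallisto-layout table listed Col10a1 at 0 as well, but Col9a3 at 0.0819 TPM in replicate 2, above that limit, and at 0.0235 TPM in replicate 1. Col9a1 and Col9a2, the other type IX chains, were each at 0.0850 TPM with SDs of 0.0212 and 0.0354. In all, 8 genes had under 10 counts in both libraries: Col6a4, Col6a5, Col9a2, Col9a3, Col10a1, Col17a1, Col25a1 and Col28a1.

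The deposited gene TPM is a sum over transcripts, each divided by its own length, and this changed how some chains compared. In the 20 genes with a mean of at least 1 TPM, transcripts under 2000 bases held 7.77% of TPM in replicate 2 and 11.1% in replicate 1, although their share of counts was only 0.801% in replicate 2 and 1.29% in replicate 1. In Col4a1, for example, Col4a1-203, a 545-base transcript, had 99 counts in replicate 2 and 91 in replicate 1, yet 8.19 TPM in replicate 2 and 7.96 TPM in replicate 1. The full-length Col4a1-201 had 13.2 TPM in replicate 2 and 18.1 TPM in replicate 1. Gene TPM therefore put Col4a1 at 1.68 ± 0.101 of Col4a2, while transcripts of at least 2000 bases put it at 1.09 ± 0.0163. The kallisto-layout table gave 2.23 ± 0.222 and 1.10 ± 0.0215 when summed in the same ways. The molecule built from these chains is known to hold alpha 1 and alpha 2 in unequal number, and the 2 ways of summing differ on whether the RNAs do.

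**Figure D3:**
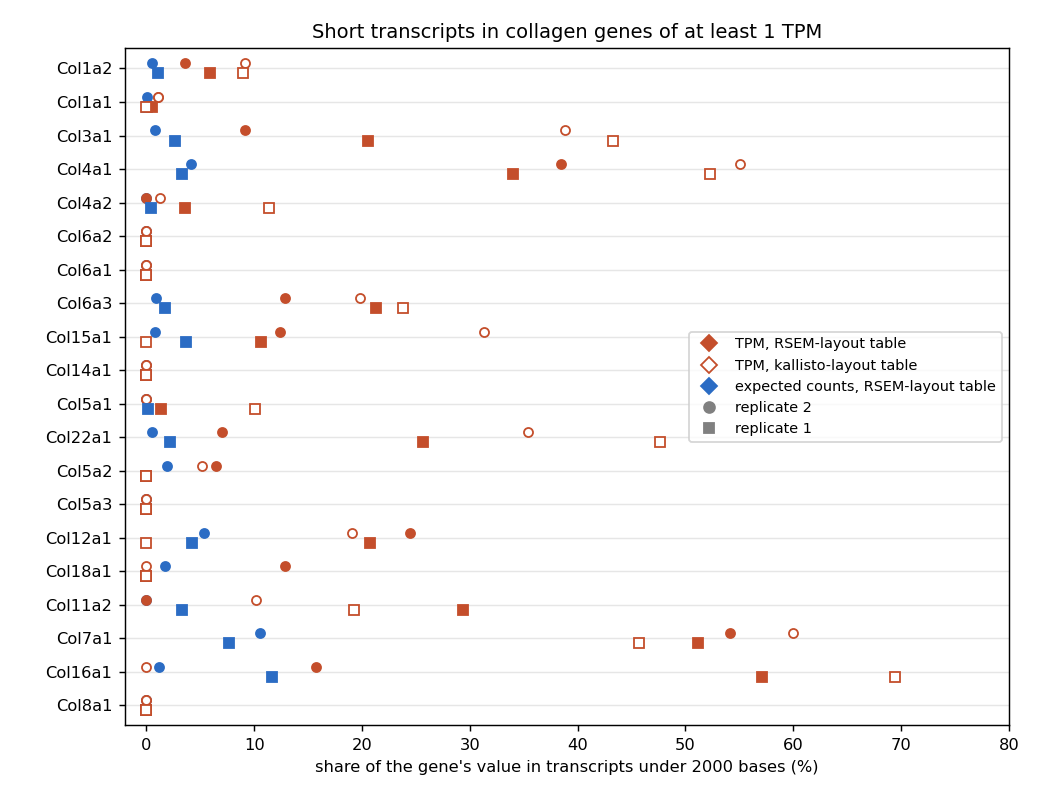
Share of each gene's value (percent) in transcripts under 2000 bases, for the 20 collagen genes with a mean of at least 1 TPM, with circles for replicate 2, squares for replicate 1, filled orange for TPM and blue for expected counts of the RSEM-layout table, and open symbols for TPM of the kallisto-layout table. In Col4a1 these transcripts hold 38.5% of TPM in replicate 2 and 34.0% in replicate 1 but 4.11% of counts in replicate 2 and 3.33% in replicate 1, and Col6a1, Col6a2, Col5a3, Col14a1 and Col8a1 have none.

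Ratios that include Col4a1 or Col3a1 also depended on which transcripts were summed. Col4a5 to Col4a1, given above for the gene and RSEM-layout tables, came in the kallisto-layout table to 0.0153 ± 0.000226 by gene TPM and 0.0330 ± 0.00188 over long transcripts. Col3a1 to Col1a1 was 0.681 ± 0.142 by gene TPM and 0.579 ± 0.0639 over long transcripts, and the kallisto-layout values were 0.978 ± 0.176 by gene and 0.576 ± 0.0684 over long transcripts. In the RSEM-layout tables the remaining pairs were as follows. Col1a1 to Col1a2 was 0.942 ± 0.0196 over long transcripts, and Col5a1 to Col5a2 was 1.19 ± 0.0714 by gene TPM and 1.22 ± 0.00423 over long transcripts. Col6a1 to Col6a2 was 0.961 either way. Col15a1 to Col18a1 was 2.46 ± 0.0676 over long transcripts. Of the 19 genes with at least 1 TPM in both libraries, 0 differed by 1.5-fold or more in both libraries between the kallisto-layout and gene tables, against 5.31% of all 10964 genes at that level. These are values of the same reads and carry no test. Over all 44 genes only Col26a1 did, with 0.329 TPM in replicate 2 and 1.10 TPM in replicate 1 in the kallisto-layout table.

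**Figure D4:**
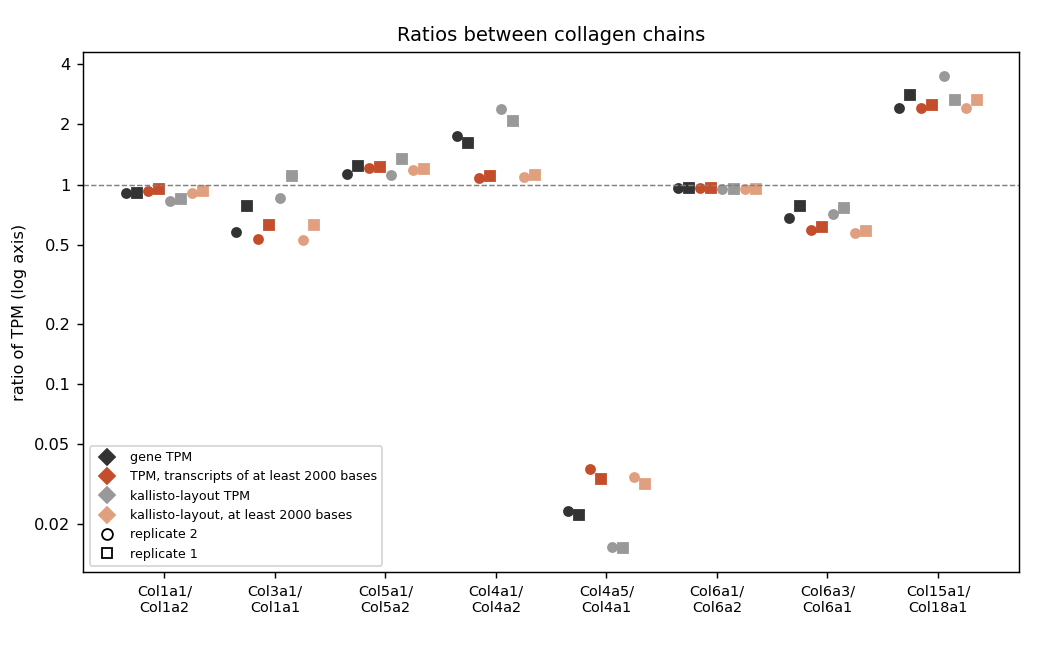
Ratio of TPM between pairs of collagen chains (log axis) in replicate 2 (circles) and replicate 1 (squares), by gene TPM, by transcripts of at least 2000 bases, and by the same sums in the kallisto-layout table. Col6a1 to Col6a2 lies between 0.946 and 0.962 on every measure, whereas Col4a1 to Col4a2 lies at 1.61 to 2.39 by gene TPM and at 1.08 to 1.12 over long transcripts.

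Between the libraries, type I chains were higher in replicate 2, and Col4a1 and Col4a2 were lower. This comparison used expected counts scaled by TMM factors for the 20 genes that averaged 100 counts or more, and called a gene apart at 1.2-fold; with 1 library a side it has no test, and the 95% intervals cover counting error only. Higher in replicate 2 were 3 of the 20 genes, against 5.09% of the 9741 genes tested, and lower were 3, against 6.72%. The median log2 ratio of the 20 genes was 0.02 and that of all genes 0.002.

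Col1a2 had 7046 counts in replicate 2 and 5675 in replicate 1, which gave a log2 ratio of 0.36 (interval 0.31 to 0.41). Col1a1 had 7252 counts in replicate 2 and 5976 in replicate 1, and its log2 ratio was 0.33 (0.28 to 0.38). With TMM factors both intervals lie wholly past 1.2-fold. With library totals the log2 ratios were nearer that limit, 0.30 for Col1a2 and 0.27 for Col1a1. Col11a1, with 168 counts in replicate 2 and 144 in replicate 1, had a log2 ratio of 0.27 whose interval of -0.06 to 0.61 includes 0. Col3a1, by contrast with type I, was at 0.08 (0.01 to 0.14).

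On the other side Col4a1 had 2433 counts in replicate 2 and 3123 in replicate 1, and its log2 ratio was -0.31 (-0.39 to -0.23). Col4a2, the divergent partner, had 2114 counts in replicate 2 and 2687 in replicate 1, and its log2 ratio was -0.29 (-0.38 to -0.21). The intervals of the pair nearly coincide. Col5a3 had 428 counts in replicate 2 and 543 in replicate 1, at -0.29 (-0.48 to -0.11), apart from its type V partners Col5a1 at -0.09 (-0.23 to 0.04) and Col5a2 at -0.05 (-0.22 to 0.12), whose intervals overlap its own. Col15a1 lay just short of the 1.2-fold limit at -0.24 (-0.38 to -0.09). Type VI chains lay close to 0, with Col6a2 at 0.03, Col6a1 at 0.02, Col6a6 at 0.01 and Col6a3 at -0.04, as did Col11a2 at -0.02, and the FACIT genes Col22a1, Col14a1 and Col12a1 were at 0.09, 0.08 and 0.04. On deposited TPM, where the median of all genes is -0.132, Col1a1 and Col1a2 were each at 0.20, under 1.2-fold, and Col3a1 was at -0.23. Of the type VI genes on that scale, Col6a1 and Col6a2 were each at -0.12, Col6a6 was at -0.20 and Col6a3 at -0.31. Col11a2 was at -0.60.

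**Figure D5:**
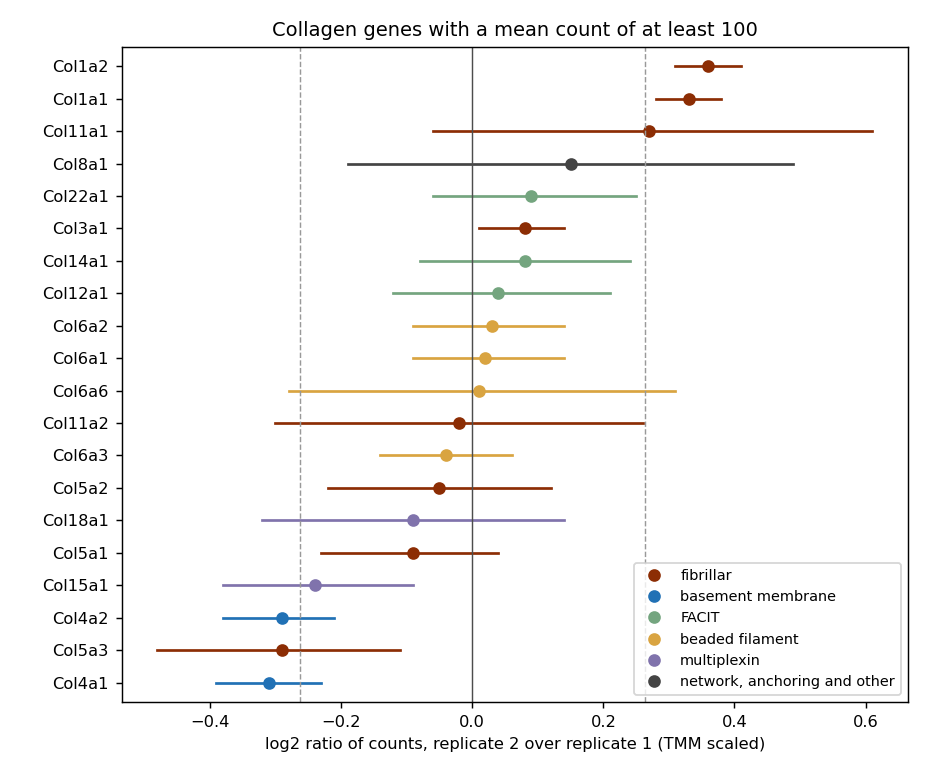
Log2 ratio of TMM-scaled expected counts, replicate 2 over replicate 1, for the 20 collagen genes that averaged 100 counts or more, coloured by class, with 95% intervals for counting error and dashed lines at 1.2-fold. Col1a2 (0.36) and Col1a1 (0.33) lie to the right with whole intervals past the line, and Col4a1 (-0.31), Col4a2 (-0.29) and Col5a3 (-0.29) lie to the left.

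Most endothelial and adipocyte markers were lower in replicate 2, as were Col4a1 and Col4a2, and the share of all genes that were lower is the 6.72% given above. Of 9 endothelial markers, summed at 55.0 TPM in replicate 2 and 73.7 TPM in replicate 1, 8 averaged 100 counts or more, and 5 of these were lower by 1.2-fold: Kdr (-0.79), Emcn (-0.60), Cdh5 (-0.42), Tie1 (-0.42) and Tek (-0.30). Pecam1 was at -0.23, Egfl7 at -0.09 and Vwf at 0.11, and all 9 reached 1 TPM in both libraries. Of 6 adipocyte markers, summed at 155 TPM in replicate 2 and 215 TPM in replicate 1, 5 were lower, namely Lep (-0.86), Cidec (-0.49), Fabp4 (-0.38), Adipoq (-0.37) and Plin1 (-0.33), with Cfd at 0.26. Of 8 smooth muscle and pericyte markers, summed at 174 TPM in replicate 2 and 209 TPM in replicate 1, 7 averaged 100 counts or more, and Kcnj8 (-0.63) and Rgs5 (-0.33) were lower, with Acta2 at -0.22, Pdgfrb at -0.19, Abcc9 at 0.03, Tagln at 0.07 and Myh11 at 0.09, so that list did not move as a group. No marker of these lists was at 0 in either library. The part of these cells in the Col4a1 and Col4a2 result was not tested.

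Markers of fibroblasts and tendon cells stood beside the type I genes as follows. For the calls in these lists, the shares over all genes tested were 5.09% higher and 6.72% lower. The 10 fibroblast markers summed to 446 TPM in replicate 2 and 479.7 TPM in replicate 1 and had a median log2 ratio of 0.04, with Gsn at 0.03, Dcn at 0.06 and Dpt at -0.09; only Dpp4 was called, at 0.56. The 8 tenocyte markers summed to 123 TPM in replicate 2 and 126 TPM in replicate 1, and the 6 with enough counts had a median of 0.19, with Fmod at 0.19, Chad at 0.10, Thbs4 at -0.02 and Kera, a cornea and tendon proteoglycan, called at 0.81. Muscle fibre genes had a median of 0.11, with Acta1 at 0.12, Tnnt3 at 0.11 and Ckm at 0.04. The part of tendon or fibroblast content in the type I result was not tested. Beside Col22a1, the 5 myotendinous markers summed to 99.3 TPM in replicate 2 and 104 TPM in replicate 1. Most of that was Itgb1, at 73.8 TPM in replicate 2 and 75.8 TPM in replicate 1. Lama2 had 15.9 TPM in replicate 2 and 18.3 TPM in replicate 1. Both are also in the lists of collagen receptors or basement membrane partners, so the sum says little of the junction. Log2 ratios were 0.07 for Itgb1, -0.07 for Lama2, 0.02 for Tigd4 and -0.12 for Maml2, and only Ankrd1 was called, at 0.31. Beside Col13a1, the 7 synaptic markers summed to 83.9 TPM in replicate 2 and 103 TPM in replicate 1, with Prkar1a at -0.10, Musk at -0.16, Ache at -0.19 and only Ufsp1 called, at -0.27.

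Many of the genes that make and mature collagen were expressed, beside the 45.7% of all nuclear protein-coding genes that reached 1 TPM in both libraries. Of 15 genes for hydroxylation and glycosylation of the nascent chain, 12 reached 1 TPM in both libraries, led by P4hb, the shared subunit of prolyl 4-hydroxylase, with 85.7 TPM in replicate 2 and 93.7 TPM in replicate 1. Ppib, a prolyl isomerase, was at 15.9 ± 1.69 TPM and Colgalt1, a collagen galactosyltransferase, at 15.6 ± 1.04 TPM. Of 11 with enough counts only P3h3, a prolyl 3-hydroxylase family member, was called, at -0.30 with an interval of -0.68 to 0.08. Among all genes tested, 5.09% were called higher and 6.72% lower. All 7 measured genes for folding and export reached 1 TPM. Mia3, which helps bulky procollagen into transport vesicles, was at 99.7 ± 1.01 TPM on 2581 counts in replicate 2 and 2734 in replicate 1. The coat protein gene Sec23a was at 27.4 ± 1.85 TPM on nearly as many counts, 2350 in replicate 2 and 2401 in replicate 1. Serpinh1, the collagen chaperone Hsp47, was at 15.5 ± 0.672 TPM. A gene's TPM also depends on the lengths of the transcripts its reads were given to, which were not examined for these genes. Fkbp14, an endoplasmic reticulum isomerase, was called at -0.29 (-0.65 to 0.06).

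Of 15 genes for processing and cross-linking, 9 reached 1 TPM in both libraries. Tgm2, a transglutaminase, was at 19.3 ± 1.73 TPM, Pcolce, an enhancer of procollagen C-proteinase, at 14.4 ± 1.94 TPM and the lysyl oxidase relative Loxl1 at 4.6 ± 0.255 TPM. Pxdn, the peroxidase that cross-links type IV collagen, had 379 counts in replicate 2 and 560 in replicate 1, with a ratio of -0.51 on the log2 scale (-0.70 to -0.32), and was thus lower in replicate 2 together with Col4a1 and Col4a2. Lox, which cross-links fibrillar collagen, had 238 counts in replicate 2 and 315 in replicate 1, at -0.35 (-0.60 to -0.11), opposite in sign to Col1a1 and Col1a2. Pcolce2 was called at 0.43 (0.14 to 0.72). Beside these calls stand the shares over all genes tested, 5.09% higher and 6.72% lower.

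Collagen receptors were led by Itgb1, the shared integrin beta chain, at 74.8 ± 1.36 TPM, followed by the discoidin domain receptors Ddr2 at 8.75 ± 0.785 TPM and Ddr1 at 7.99 ± 1.28 TPM. Of the 6 with enough counts only Itga11, an integrin chain that binds type I collagen, was called, at -0.43 (-0.80 to -0.07). Among 7 genes for collagen breakdown, the gelatinase Mmp2 led at 18.4 ± 0.735 TPM, before Ctsk at 2.74 ± 0.219 TPM and Mmp14 at 2.67 ± 0.212 TPM, and the collagenase Mmp13 had 0 counts in both libraries; Ctsk was called at 0.31 (-0.10 to 0.72). Partners of type IV collagen in the basement membrane were all expressed. Sparc was at 102 ± 7.72 TPM and the laminin chains Lamb2 and Lamc1 at 51.6 ± 6.26 and 22.5 ± 2.61 TPM. Of these 11 genes 0 were called, and 10 had ratios below 0, with a median of -0.07 and a range of -0.23 to 0.16, so all lay nearer to 0 than Col4a1 and Col4a2. Over all genes tested 5.09% were called higher and 6.72% lower, with a median of 0.002, so 0 calls in 11 does not set these partners apart.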

How the data were processed

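Per the labels, 3 tables were deposited for each library on mm10 and GENCODE M21, with aligner and program versions not given in the sources used here. The gene table and the RSEM-layout transcript table hold, per the file headers, expected counts, TPM and the posterior SD of a count (a score, used from the gene table), in which reads that match several genes are divided. The deposited kallisto-layout table holds estimated counts and TPM per transcript, summed here per gene. Rows that are not annotated genes, such as spike-ins, were left out; they held 0.474% of all counts in replicate 2 and 0.527% in replicate 1.

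Levels are the TPM as deposited. For replicate 2 over replicate 1, expected counts were rounded and scaled by edgeR 4.0.16 TMM factors (genes averaging 10 or more counts), with a prior of 0.5 counts and exact binomial 95% intervals. Reads are not independent molecules, so intervals cover counting error only. Genes had to average 100 counts, and 1.2-fold was called. Kallisto-layout and gene TPM were compared with a pseudocount of 0.1. Symbols of the other lists were matched to M21, and 1, Ctage5, was not found. Promoters are from RefSeq (GRCm38.p6) and coding runs from M21 transcripts. The step that gives the ratio between the libraries was tested on simulated counts that varied by counting error only.

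Members, lists and rules were chosen with earlier results of these data known. Named with values are collagen genes with a mean of at least 1 TPM or called apart, 8 genes tied to muscle niches, the rest by level or count, and per other list the 3 of highest TPM and those called apart; 1 marker list is not reported here. Tried in their place were size factors from DESeq2 1.42.0, library totals, deposited TPM, other count minimums, folds and priors, other TPM minimums, the kallisto-layout table, protein-coding or long transcripts and each library alone. The software was Python 3.11.15 with matplotlib 3.10.9, scipy 1.17.1, pandas 2.3.3 and numpy 2.4.6, and R 4.3.3.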

Additional observations from a re-analysis of the deposited data

How the results depend on the processing

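No paired analysis was possible because the 2 libraries form 1 group. Of 113 values under alternatives that bear on a comparison, 80 were labelled the same, and 0 called ratios changed direction. Same meant within the SD of the 2 libraries, or within 1.5 times for counts of genes. For median log2 ratios it meant within the SD over the 20 genes, a different spread. Shares and chain ratios from 1 library alone always fall within the SD of the 2, so those among the 80 carry no information. The collagen share of protein-coding abundance was 0.122% by expected counts and 0.0475% over collagen transcripts of at least 2000 bases. By expected counts the FACIT share was 6.67% and the share of other chains 17.8%, against 18.5% for the other chains in the kallisto-layout table. In that table Col1a1 to Col1a2 was 0.838, Col3a1 to Col1a1 0.978, Col4a1 to Col4a2 2.23, Col4a5 to Col4a1 0.0153, Col6a1 to Col6a2 0.947 and Col15a1 to Col18a1 3.08, and 19.1% of TPM lay in short and 10.9% in non-coding transcripts, against 9.45% and 4.15% in the RSEM-layout table. Over protein-coding transcripts Col1a1 to Col1a2 was 0.916, Col6a1 to Col6a2 0.976 and Col6a3 to Col6a1 0.602. The limit of 2000 bases was added after seeing the data. With it Col1a1 to Col1a2 was 0.942, Col4a1 to Col4a2 1.09, Col4a5 to Col4a1 0.0358, Col6a1 to Col6a2 0.961 and Col6a3 to Col6a1 0.603, and in the kallisto-layout table the same ratios were 0.917, 1.10, 0.0330, 0.947 and 0.578. Between the libraries, deposited TPM called 1 gene higher and 7 lower, against 4.00% and 23.9% of all genes, a minimum count of 10 called 6 higher and 7 lower of 34 genes, against 12.5% and 14.3%, and 1.5-fold called 0 in either direction, against 0.626% and 0.595%. The median log2 ratio of the 20 genes, 0.02, was -0.04 with library totals and -0.17 on deposited TPM, where the median of all genes was -0.060 and -0.132. Col11a1 was at 0.21 with library totals and Col1a1 and Col1a2 at 0.20 on deposited TPM, all under 1.2-fold, with the cause not tested. Over all 44 genes 1 differed between the tables. Of the genes averaging under 100 counts, only Col23a1 (0.20 to 1.34) and Col4a4 (-0.91 to -0.04) have intervals of the log2 ratio that exclude 0.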
